A study of Arabidopsis thaliana with 60 samples.

Results

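A set of 10 genes of aliphatic glucosinolate synthesis was followed in Arabidopsis thaliana leaves in which flagellin perception, the bacterial effector AvrRpt2, or both were switched on. The regulators were MYB28 (AT5G61420), MYB29 (AT5G07690) and MYB76 (AT5G07700). The chain elongation genes were BCAT4 (AT3G19710), BAT5 (AT4G12030), MAM1 (AT5G23010) and MAM3 (AT5G23020). The core pathway genes were CYP79F1 (AT1G16410), CYP79F2 (AT1G16400) and CYP83A1 (AT4G13770). The genes were chosen by their role in the pathway, with earlier results of these data known, and were looked up by locus identifier. All 10 of 10 were among the 25036 genes of the count table and passed the filter on low counts that left 16763 genes. Every plant, controls included, was of the Col-0 ecotype and carried the genotype dde2 ein2 pad4 sid2 Ed-AvrRpt2. The mutated genes act in jasmonate synthesis (DDE2), ethylene signalling (EIN2), lipase-like defence regulation (PAD4) and salicylic acid synthesis (SID2), and the transgene makes AvrRpt2 when estradiol (Ed) is supplied. Leaves of 4-week-old plants received 1 µM flg22 with 10 µM Ed (flg22+Ed), 10 µM Ed alone (Ed), 1 µM flg22 alone (flg22), or 0.1% ethanol (Mock). They were taken 60, 120, 180 and 300 min later, and leaves labelled 0 min were untouched. Each of the 20 groups had 3 libraries, 1 from each of 3 independent experiments, and each library pooled leaves of 2 plants. The peptide flg22 is the stretch of bacterial flagellin that plants perceive, and AvrRpt2 is a bacterial protease recognised inside the cell. The labels list ethanol in the Ed and Mock solutions but give none for flg22 alone. Plants without the transgene were not analysed here, so an effect of estradiol itself and one of AvrRpt2 cannot be told apart. The labels do not name the promoter behind the transgene's activator.

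Aliphatic glucosinolates are sulfur-rich defence compounds of the cabbage family that are built from methionine. BCAT4 removes the amino group of methionine, BAT5 carries the resulting keto acid into the plastid, and the MAM enzymes lengthen its chain. CYP79F1 and CYP79F2 turn the elongated methionines into aldoximes, CYP83A1 oxidises these, and later enzymes add sulfur, glucose and sulfate. MYB28, MYB29 and MYB76 are transcription factors that activate the genes of this route, and they work together with the jasmonate-linked factors MYC2, MYC3 and MYC4. Indolic glucosinolates are made from tryptophan by a parallel route with its own MYB factors.

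In RefSeq TAIR10.1 the regulators lie on chromosome 5, with MYB28 at chr5:24689069-24691187 (minus strand), MYB29 at chr5:2446669-2448584 (plus strand) and MYB76 at chr5:2450027-2451807 (plus strand). The elongation genes are BCAT4 at chr3:6846969-6849582 (minus strand), BAT5 at chr4:7210807-7213376 (plus strand), MAM1 at chr5:7703041-7706973 (plus strand) and MAM3 at chr5:7718118-7721866 (plus strand). The core genes are CYP79F1 at chr1:5608682-5612064 (plus strand), CYP79F2 at chr1:5605044-5607498 (plus strand) and CYP83A1 at chr4:7990429-7992429 (minus strand). MYB29 and MYB76, CYP79F1 and CYP79F2, and MAM1 and MAM3 are neighbours, with 1442, 1183 and 11144 bases between them.

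The sequences just upstream of the 3 regulators and of CYP83A1 are shown because the regulators set the level of the route and CYP83A1 was the gene with a G-box, the usual site of MYC factors, in this window. They are the 250 bases before the annotated gene start in RefSeq TAIR10.1, read 5′ to 3′ on the gene's strand, at chr5:24691188-24691437 (minus strand), chr5:2446419-2446668 (plus strand), chr5:2449777-2450026 (plus strand) and chr4:7992430-7992679 (minus strand). Capitals mark matches to any of the motifs searched on both strands.
MYB28: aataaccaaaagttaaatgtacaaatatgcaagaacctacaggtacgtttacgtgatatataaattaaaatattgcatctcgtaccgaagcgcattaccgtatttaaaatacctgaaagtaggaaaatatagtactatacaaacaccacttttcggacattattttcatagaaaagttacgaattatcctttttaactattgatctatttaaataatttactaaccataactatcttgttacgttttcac
MYB29: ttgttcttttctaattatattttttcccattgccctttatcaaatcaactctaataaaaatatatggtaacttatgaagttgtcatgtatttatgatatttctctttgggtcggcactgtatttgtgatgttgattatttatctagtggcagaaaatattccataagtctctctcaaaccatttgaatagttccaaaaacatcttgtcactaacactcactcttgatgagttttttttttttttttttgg
MYB76: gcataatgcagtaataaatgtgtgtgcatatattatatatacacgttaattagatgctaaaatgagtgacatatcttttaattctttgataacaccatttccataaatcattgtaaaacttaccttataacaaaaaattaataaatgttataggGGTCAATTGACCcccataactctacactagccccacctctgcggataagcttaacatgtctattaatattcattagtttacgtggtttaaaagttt
CYP83A1: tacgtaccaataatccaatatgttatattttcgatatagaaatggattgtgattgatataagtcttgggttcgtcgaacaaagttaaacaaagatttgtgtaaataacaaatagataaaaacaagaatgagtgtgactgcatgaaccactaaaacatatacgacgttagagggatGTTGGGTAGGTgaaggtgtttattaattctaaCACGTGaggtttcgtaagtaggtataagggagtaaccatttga
The G-box CACGTG was in 1 of the 10 windows, that of CYP83A1, and in 6.49% of 27443 windows of the same length across the genome. The W-box forms TTGACC and TTGACT, the usual sites of WRKY factors, were in 1 window (MYB76, as an adjacent pair on opposite strands) and in 0 of the 10, against 12.2% and 19.1% of all windows. The MYB-type element ACCNACC was in 3 windows (CYP79F2, CYP83A1 and BAT5), against 6.1% of all, and ACCNAAC in 1 (CYP83A1, where it overlaps ACCNACC), against 14.5% of all. These matches are descriptions of letters in a short window. MYB28 and MYB29 held no match to any of these motifs.

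Transcripts were counted from their 3′ ends, with 1458920 to 4673355 counts per library, and levels are given in CPM, the counts of a gene relative to 1e6 counts of its library after TMM scaling. The depth behind the genes differed: summed over the 60 libraries, CYP83A1 had 27972 counts, MAM1 16916, BCAT4 16697, CYP79F1 11277, MYB28 8722, BAT5 4023, MYB29 2233, MAM3 1486, CYP79F2 802 and MYB76 307. A count of 0 allows up to 3 counts, which was 0.603 to 2.2 CPM depending on the library, so single values of MYB76 and CYP79F2 lay near the floor. This floor and the intervals below cover counting error only. In experiment 2, 4 libraries stood apart in the clock genes, which follow the time of day: the library labelled Mock 300 min had 316 CPM of the morning gene LHY, against 3.07 and 1.54 CPM in the other 2 of its group. The library labelled flg22 0 min had 4.65 CPM against 268 and 359 CPM. The libraries labelled Mock 60 min and Mock 0 min of that experiment, with 250.1 and 106 CPM of LHY against 149 to 158 and 284 to 391 CPM in the others of their groups, completed the set. The LHY level of the library labelled Mock 300 min lay in the range of the other untouched leaves (252 to 391 CPM), and that of the library labelled flg22 0 min was near those at 300 min. The LHY levels of these 4 libraries thus went against the times in their labels, and whether labels were exchanged was not tested. If they were, the Mock 60 min, Mock 300 min and untouched groups may each hold leaves of another time or treatment. Labels were kept as deposited, and the main results that rest on these 4 libraries are given with and without them. Comparisons against Mock at one time share the same 3 Mock libraries. The p-values are from the quasi-likelihood test of edgeR, adjusted over 16763 genes (16926 in the fit without the 4 libraries). They rest on the spread between the libraries of a group, each from another experiment, pooled over the 20 groups.

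At 300 min the aliphatic genes stood lower in all 3 treatments than in Mock. In flg22+Ed leaves 9 of the 10 fell and 0 rose, where 30.5% of all tested genes fell and 27.9% rose. In Ed leaves 8 fell and 0 rose, where 9.46% of all genes fell and 14.7% rose. In flg22 leaves 7 fell and 0 rose, where 20.9% of all genes fell and 19.2% rose. The median log2 fold change of the 10 genes was -1.90 in flg22+Ed, -1.54 in Ed and -1.46 in flg22 leaves, while the median of all genes was -0.084, -0.075 and -0.047. MAM3 was the 1 gene that passed the test in none of the 3 treatments. With the 4 libraries of experiment 2 left out the counts were 9, 6 and 6, against 29.8%, 7.98% and 19.5% of all genes, and the medians -1.88, -1.44 and -1.26.

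**Figure D1:**
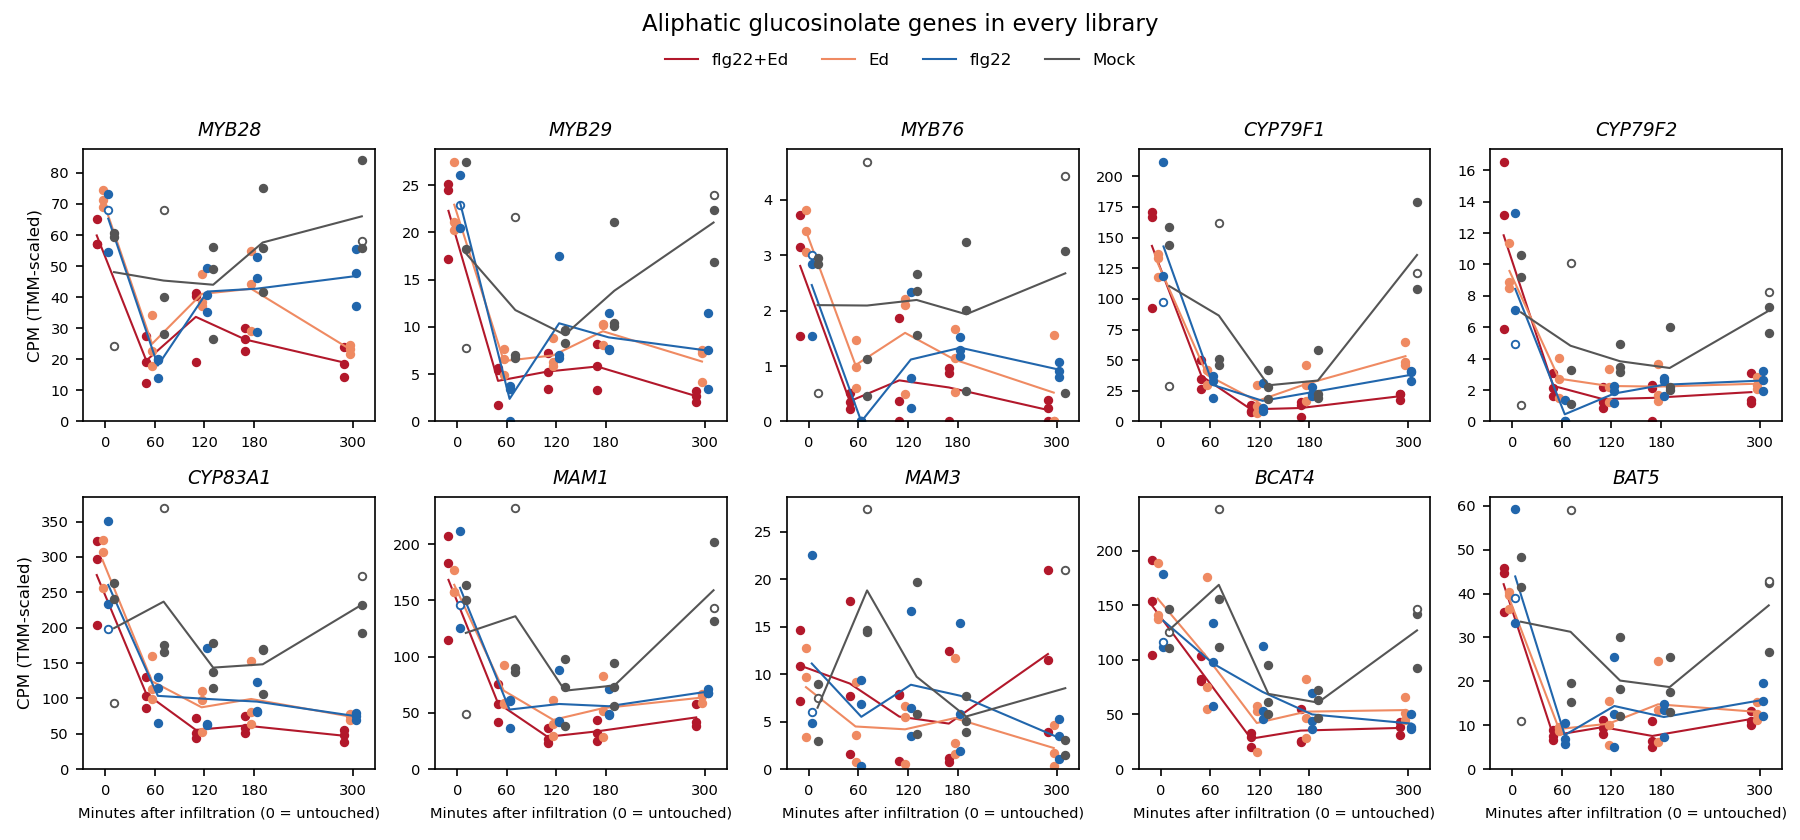
Level of each of the 10 genes (CPM, TMM-scaled, vertical axes from 0) against minutes after infiltration, with 1 point per library, lines through the means of 3 libraries, and open points for the 4 libraries of experiment 2 that stood apart. Points of the treatments are set side by side at each time in the order flg22+Ed, Ed, flg22, Mock; at 300 min the Mock points lie above those of flg22+Ed for every gene except MAM3, and the open Mock point at 60 min is the highest of its group in all 10 genes.

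Among the regulators, MYB28 had 18.5, 24.0 and 14.3 CPM in the 3 flg22+Ed libraries at 300 min, 21.6, 24.7 and 23.3 CPM in Ed, 55.5, 47.7 and 37.2 CPM in flg22, and 84.1, 58.2 and 55.8 CPM in Mock. All libraries with estradiol lay below all flg22 and all Mock libraries, and every flg22 library lay below every Mock library by a smaller margin. The log2 fold change of MYB28 against Mock was -1.81 ± 0.34 in flg22+Ed (adjusted p = 1.17e-05) and -1.51 ± 0.33 in Ed (adjusted p = 0.000548). Its value in flg22 was -0.50 ± 0.32 (adjusted p = 0.22). The error after ± is worked back from the F statistic of the test. MYB28 was the only gene of the 10 called between the single treatments at this time, with -1.01 ± 0.33 in Ed against flg22 (adjusted p = 0.0253), where 7.5% of all genes fell. That call was lost in 5 of the 6 fits that left out 1 library of these groups, with an adjusted p of at most 0.0824, and stood in the sixth, without replicate 3 of flg22.

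MYB29, the close relative of MYB28, had 2.11, 2.71 and 3.23 CPM in flg22+Ed leaves at 300 min, 4.21, 7.55 and 7.27 CPM in Ed, 11.5, 7.57 and 3.48 CPM in flg22, and 22.4, 23.9 and 16.9 CPM in Mock. No library of the 3 treatments reached the lowest Mock value. MYB29 fell by 2.97 ± 0.50 on the log2 scale in flg22+Ed (adjusted p = 2.18e-06), by 1.73 ± 0.45 in Ed (adjusted p = 0.00318) and by 1.48 ± 0.43 in flg22 (adjusted p = 0.00577). The flg22 call was lost without replicate 3 of flg22 (adjusted p = 0.0555).

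MYB76, another activator and the neighbour of MYB29 on chromosome 5, was near the detection floor. At 300 min it had 1, 1 and 0 counts in the 3 flg22+Ed libraries, 0, 6 and 0 in Ed, 5, 4 and 3 in flg22, and 11, 15 and 1 in Mock. The flg22+Ed libraries together held 2 counts against 27 in Mock, a ratio of 0.0626 with a 95% counting interval of 0.00721 to 0.249. Without the 4 libraries of experiment 2 there were 2 counts against 12, a ratio of 0.0873 (interval 0.00949 to 0.392). The edgeR test called MYB76 in flg22+Ed (log2 fold change -3.68 ± 1.01, adjusted p = 0.00177) and in Ed (-2.32 ± 0.83, adjusted p = 0.0366) but not in flg22 (-1.58 ± 0.74, adjusted p = 0.0876). The Ed call was lost in 4 of 6 fits that left out 1 library, up to an adjusted p of 0.203 without Mock replicate 2, and was 0.133 without the 4 libraries of experiment 2.

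For chain elongation, BCAT4 had 38.3, 31.4 and 43.3 CPM in flg22+Ed at 300 min, 44.9, 65.6 and 51.5 CPM in Ed, 36.3, 50.2 and 38.5 CPM in flg22, and 142, 146 and 92.1 CPM in Mock. The 9 treated libraries lay between 31.4 and 65.6 CPM, all below Mock. BCAT4 fell by 1.75 ± 0.42 on the log2 scale in flg22+Ed (adjusted p = 0.000425), by 1.23 ± 0.41 in Ed (adjusted p = 0.0238) and by 1.61 ± 0.42 in flg22 (adjusted p = 0.00187). In Ed leaves the adjusted p reached 0.12 without Ed replicate 1 and was 0.0688 without the 4 libraries. In the TAIR10.1 annotation BCAT4 overlaps AT3G19700 on the opposite strand, but that gene had 7 counts in all 60 libraries, or 0.0419% of the BCAT4 total.

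The plastid transporter BAT5 had 13.1, 10.07 and 11.03 CPM in flg22+Ed, 11.2, 15.4 and 12.5 CPM in Ed, 15.6, 19.7 and 12.0 CPM in flg22, and 42.5, 42.8 and 26.6 CPM in Mock at 300 min. Every treated library lay below every Mock library. BAT5 fell by 1.71 ± 0.47 in flg22+Ed (log2 scale, adjusted p = 0.00175), by 1.52 ± 0.46 in Ed (adjusted p = 0.0123) and by 1.25 ± 0.45 in flg22 (adjusted p = 0.025). Leaving out 1 library ended the flg22 call in 4 of 6 fits, up to an adjusted p of 0.1 without flg22 replicate 3, and the Ed call in 2 of 6, up to 0.0687 without Ed replicate 1.

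MAM1, which lengthens the chain of short aliphatic glucosinolates, had 41.8, 37.9 and 58.1 CPM in flg22+Ed at 300 min, 58.7, 66.9 and 65.1 CPM in Ed, 67.4, 71.3 and 67.9 CPM in flg22, and 202, 143 and 132 CPM in Mock. The 9 treated libraries again stayed below all Mock libraries. MAM1 fell by 1.79 ± 0.40 in flg22+Ed (log2 scale, adjusted p = 0.000165), by 1.32 ± 0.39 in Ed (adjusted p = 0.0102) and by 1.21 ± 0.39 in flg22 (adjusted p = 0.0117). The highest adjusted p with 1 library left out was 0.0562 in Ed, without Ed replicate 1, and 0.0679 in flg22, without Mock replicate 1.

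MAM3, which makes longer chains and lies 11144 bases from MAM1, behaved unevenly between experiments. It had 11.5, 3.87 and 21.0 CPM in flg22+Ed at 300 min, 1.68, 4.69 and 0.291 CPM in Ed, 1.08, 5.27 and 3.48 CPM in flg22, and 3.07, 21.0 and 1.54 CPM in Mock. The groups overlapped, and the highest Mock value was from the library labelled Mock 300 min of experiment 2. Its log2 fold changes were 0.47 ± 0.91 in flg22+Ed (adjusted p = 0.681), -1.96 ± 1.07 in Ed (adjusted p = 0.185) and -1.45 ± 1.01 in flg22 (adjusted p = 0.261). With the 4 libraries left out the values of MAM3 were 2.33 ± 1.21 (adjusted p = 0.0958), -0.12 ± 1.42 (adjusted p = 0.972) and 0.43 ± 1.34 (adjusted p = 0.833), so its direction in flg22 turned. When the last 300 bases of the longest annotated MAM1 and MAM3 transcripts were aligned, 68.4% of the 196 aligned bases were identical. The longest shared run was 13 bases.

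In the core pathway, CYP79F1 had 17.1, 22.07 and 22.601 CPM in flg22+Ed at 300 min, 46.3, 48.7 and 64.9 CPM in Ed, 40.9, 40.3 and 33.2 CPM in flg22, and 179, 121 and 108 CPM in Mock. The 3 flg22+Ed libraries lay below all others, and the single treatments lay between them and Mock. CYP79F1 fell by 2.72 ± 0.54 on the log2 scale in flg22+Ed (adjusted p = 3.19e-05), by 1.83 ± 0.52 in flg22 (adjusted p = 0.00392) and by 1.35 ± 0.51 in Ed (adjusted p = 0.0456). The Ed call was lost in 5 of 6 fits that left out 1 library, up to an adjusted p of 0.162 without Ed replicate 1, and held without the 4 libraries (adjusted p = 0.0193).

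CYP79F2, the neighbouring copy that acts on long chains, had 1.17, 3.10 and 1.35 CPM in flg22+Ed at 300 min, 2.81, 2.08 and 2.33 CPM in Ed, 1.95, 3.21 and 2.67 CPM in flg22, and 7.26, 8.27 and 5.63 CPM in Mock. All 9 treated libraries were below Mock, on 5 to 14 counts each. CYP79F2 fell by 2.00 ± 0.65 in flg22+Ed (log2 scale, adjusted p = 0.00736) and by 1.44 ± 0.59 in flg22 (adjusted p = 0.0481), and its value in Ed was -1.56 ± 0.61 (adjusted p = 0.0567; 0.0536 without the 4 libraries). The flg22 call was lost in each of the 6 fits that left out 1 library, up to an adjusted p of 0.141 without flg22 replicate 1, and without the 4 libraries (0.0514). With the experiment number as a replicate block CYP79F2 was also called in Ed (adjusted p = 0.0481), which brought the count there to 9. The last 300 bases of the longest annotated transcripts of CYP79F1 and CYP79F2 shared no run longer than 8 bases. Other annotated transcripts were not compared.

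CYP83A1, whose window holds the G-box printed above, had 47.9, 37.9 and 55.4 CPM in flg22+Ed at 300 min, 69.6, 75.0 and 78.2 CPM in Ed, 69.6, 79.1 and 75.7 CPM in flg22, and 232, 273 and 192 CPM in Mock. The groups formed 3 steps without overlap, with the single treatments in a shared middle range. CYP83A1 fell by 2.30 ± 0.38 in flg22+Ed (log2 scale, adjusted p = 1.46e-06), by 1.65 ± 0.37 in Ed (adjusted p = 0.000713) and by 1.64 ± 0.37 in flg22 (adjusted p = 0.000399). CYP83A1 kept these 3 calls without any 1 library of the groups compared, with adjusted p values of at most 5.87e-05 in flg22+Ed, 0.00784 in Ed and 0.00329 in flg22.

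**Figure D2:**
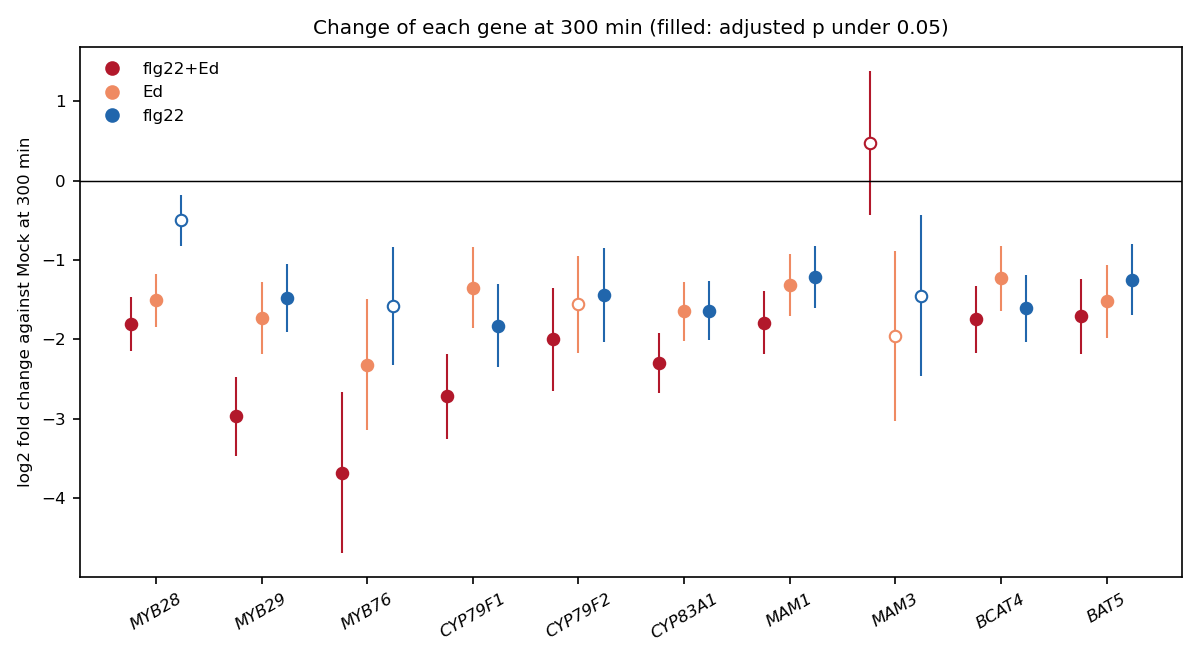
Log2 fold change against Mock at 300 min (vertical axis) of each of the 10 genes for flg22+Ed, Ed and flg22, left to right within a gene, with bars of 1 error worked back from the F statistic and filled points for adjusted p under 0.05. All points lie below 0 except MAM3 in flg22+Ed (0.47), and MYB28 in flg22 (-0.50) is the smallest fall.

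The 9 calls in flg22+Ed leaves at 300 min stood in each of the 6 fits that left out 1 library of these 2 groups. With 1 library left out, the count in flg22 leaves was between 4 and 7, with 4 without Mock replicate 1 or flg22 replicate 3, and 5 without flg22 replicate 1 or Mock replicate 2. In Ed leaves it was between 3 and 8, with 3 without Ed replicate 1, 4 without Mock replicate 1 or Mock replicate 2, and 5 without Ed replicate 3. Mock leaves at 300 min did not differ from untouched leaves for any of the 10 genes in this test, with log2 fold changes from -0.31 to 0.13 and 0 genes at an unadjusted p under 0.05 (0 also by DESeq2), where 0.453% of all genes fell.

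The double treatment was also set against each single one. Against flg22 at 300 min, 2 of the 10 fell (MYB28 by 1.31 ± 0.33, adjusted p = 0.00514, and MYB29 by 1.50 ± 0.51, adjusted p = 0.0425), where 7.21% of all genes fell. Against Ed, 1 fell (CYP79F1 by 1.37 ± 0.52, adjusted p = 0.0377) and 0 rose, where 18.8% of all genes fell and 14.6% rose. The count against Ed was thus not above the share of all genes and is not a result about the set. The count against flg22 rests on 2 genes. With 1 library left out, MYB29 lost its call in 5 of 6 fits, up to an adjusted p of 0.318 without flg22 replicate 1. CYP79F1 lost it in 5 of 6, up to 0.125 without flg22+Ed replicate 1, and MYB28 in 1 of 6, with 0.0527 without flg22+Ed replicate 3. Against Ed, MAM3 stood higher by 2.42 ± 1.04 (adjusted p = 0.068), and it passed the threshold with the replicate block (adjusted p = 0.0476) and with DESeq2. Without the 4 libraries MAM3 was called at 2.45 ± 1.00 (adjusted p = 0.0469) and MYB29 at -1.22 ± 0.47 (adjusted p = 0.0364). MAM3 was at 1.91 ± 0.98 against flg22 (adjusted p = 0.196), and was called as higher there when only these groups were fitted, while the other uncalled differences were below 0: from -2.10 (MYB76) to -0.14 (BCAT4) against flg22 and from -1.36 (MYB76) to -0.18 (BAT5) against Ed.

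The flg22 by Ed interaction asks whether the change in flg22+Ed leaves differs from the sum of the single changes on the log2 scale. At 300 min the interaction was above 0 for all 10 genes (for 9 without the 4 libraries, where MYB76 was at -0.29), but 0 passed the threshold in the edgeR test, 1 had an unadjusted p under 0.05, and DESeq2 also called 0; 0.0835% of all genes were called in this direction. For CYP83A1 the single changes summed to -3.28 and the change with both was -2.30, an interaction of 0.98 ± 0.51 (adjusted p = 0.481). For BCAT4 they were -2.84 and -1.75 (interaction 1.09 ± 0.58, adjusted p = 0.497), and for BAT5 -2.77 and -1.71 (1.06 ± 0.66, adjusted p = 0.593). For MYB28 they were -2.01 and -1.81 (interaction 0.20 ± 0.46), and for MYB29 -3.21 and -2.97 (0.24 ± 0.71). The interaction was 0.22 ± 4.08 for MYB76, 0.46 ± 0.72 for CYP79F1, 0.74 ± 0.55 for MAM1 and 1.01 ± 0.94 for CYP79F2. Whether the interaction differed between genes was not tested. MAM3 had the highest value, 3.87 ± 1.45 (adjusted p = 0.218), and 2.02 ± 1.74 without the 4 libraries (adjusted p = 0.865). All of these use the same Mock libraries. The share of all genes with an interaction above 0 is not given here, so the count of signs is not a result about the set. At 180 min none of the 10 genes was called for the interaction either, with 0 at an unadjusted p under 0.05 and 0 by DESeq2.

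Before 300 min the times at which genes were called against Mock differed between the treatments, which does not test the treatments against each other. With all libraries, 0 of the 10 genes were called at 180 min in flg22+Ed against flg22, flg22+Ed against Ed, or Ed against flg22. Of all genes 0%, 5.66% and 7.3% fell and 0.483%, 9.69% and 2.35% rose in these comparisons. No such direct tests were made at 60 or 120 min. In flg22+Ed leaves 4 genes fell at 60 min (2.08% of all genes), 4 at 120 min (4.98%) and 5 at 180 min (14.5%). CYP83A1 and MAM1 were called at all of these times. The other calls were MYB28 and BAT5 at 60 min, CYP79F1 and BCAT4 at 120 min, and MYB28, MYB29 and CYP79F1 at 180 min. At 60 min the calls of CYP83A1 and MAM1 were each lost in 4 of 6 fits that left out 1 library. Their edgeR adjusted p was 0.56 and 0.709 without Mock replicate 2, a library that stood apart. CYP83A1 had 50.3, 43.4 and 72.3 CPM in flg22+Ed leaves at 120 min, against 137.5, 178 and 115 CPM in Mock (log2 fold change -1.38 ± 0.37, adjusted p = 0.00788). MYB28 had 29.9, 22.8 and 26.4 CPM in flg22+Ed leaves at 180 min, against 75.2, 55.9 and 41.6 CPM in Mock (log2 fold change -1.12 ± 0.33, adjusted p = 0.0072). With 1 library left out the counts were 0 to 4 at 120 min, with 0 without Mock replicate 2, 1 without Mock replicate 1, flg22+Ed replicate 1 or flg22+Ed replicate 2, and 2 without flg22+Ed replicate 3. At 180 min they were 1 to 6, with 1 without Mock replicate 1 and 3 without flg22+Ed replicate 2 or 3. In the fit without the 4 libraries of experiment 2 they were 5 at 120 min (9.26% of all genes) and 6 at 180 min (18.5%).

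In Ed leaves none of the 10 genes was called at 60, 120 or 180 min, by edgeR or by DESeq2 (which gave an adjusted p for 8 of the 10 at 120 min), where 0%, 0% and 0.00597% of all genes fell; 6, 1 and 0 had an unadjusted edgeR p under 0.05. CYP83A1 had 80.2, 64.1 and 153 CPM in Ed leaves at 180 min, against 170 and 168 CPM in Mock replicates 1 and 3 and 107 CPM in Mock replicate 2, a log2 fold change of -0.58 ± 0.36 (adjusted p = 0.765). MYB28 had 44.3, 29.1 and 54.8 CPM in Ed leaves at 180 min, against 75.2, 55.9 and 41.6 CPM in Mock, groups that overlapped (log2 fold change -0.44 ± 0.32, adjusted p = 0.873).

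In flg22 leaves 7 of the 10 genes fell at 60 min (MYB28, MYB29, MYB76, CYP79F2, CYP83A1, MAM1 and BAT5), where 3.39% of all genes fell, and none was called at 120 min (2.8%) or 180 min (8.17%), with 0 at an unadjusted p under 0.05 at both times and 0 by DESeq2. MYB28 had 19.98, 14.1 and 19.9 CPM in flg22 leaves at 60 min, against 39.999, 68.0 and 28.0 CPM in Mock (log2 fold change -1.35 ± 0.34, adjusted p = 0.00793). BAT5 had 6.89, 5.75 and 10.6 CPM in flg22 leaves, against 15.2, 59.03 and 19.6 CPM in Mock (-2.06 ± 0.50, adjusted p = 0.00585). MYB76 had 0 counts in all 3 flg22 libraries at 60 min, against 18 counts in the 3 Mock libraries. With 3 counts over the flg22 group taken as the floor, Mock stood 5.66-fold above that floor. This figure takes the Mock counts as exact and leaves out their counting error, so it is not a lower bound on the fall. Of those 18 counts 13 were from Mock replicate 2, and without it the figure for MYB76 was 2.34-fold, from 5 counts. Mock replicate 2 at 60 min, the library of experiment 2 that stood apart, was the highest of its group in all 10 genes, and in CYP79F1 it reached 162 CPM, against 51.3 and 45.7 CPM in the other 2 Mock libraries. The count at 60 min was 0 in flg22 and 0 in flg22+Ed leaves without that library, and also without the 4 libraries, where 1.16% and 0.609% of all genes fell. In that fit the log2 fold changes of the 9 genes other than MYB76 in flg22 leaves were all below 0, from -1.91 (CYP79F2) to -0.46 (BCAT4), and 5 of the 10 genes had an unadjusted p under 0.05, with -0.92 ± 0.34 for MYB28 (adjusted p = 0.111) and -1.20 ± 0.48 for BAT5 (adjusted p = 0.162). Other single libraries moved the count in flg22 leaves to 3 (flg22 replicate 2) and 4 (flg22 replicate 3), and in flg22+Ed leaves to 1 (flg22+Ed replicate 2 or 3) and 2 (flg22+Ed replicate 1).

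**Figure D3:**
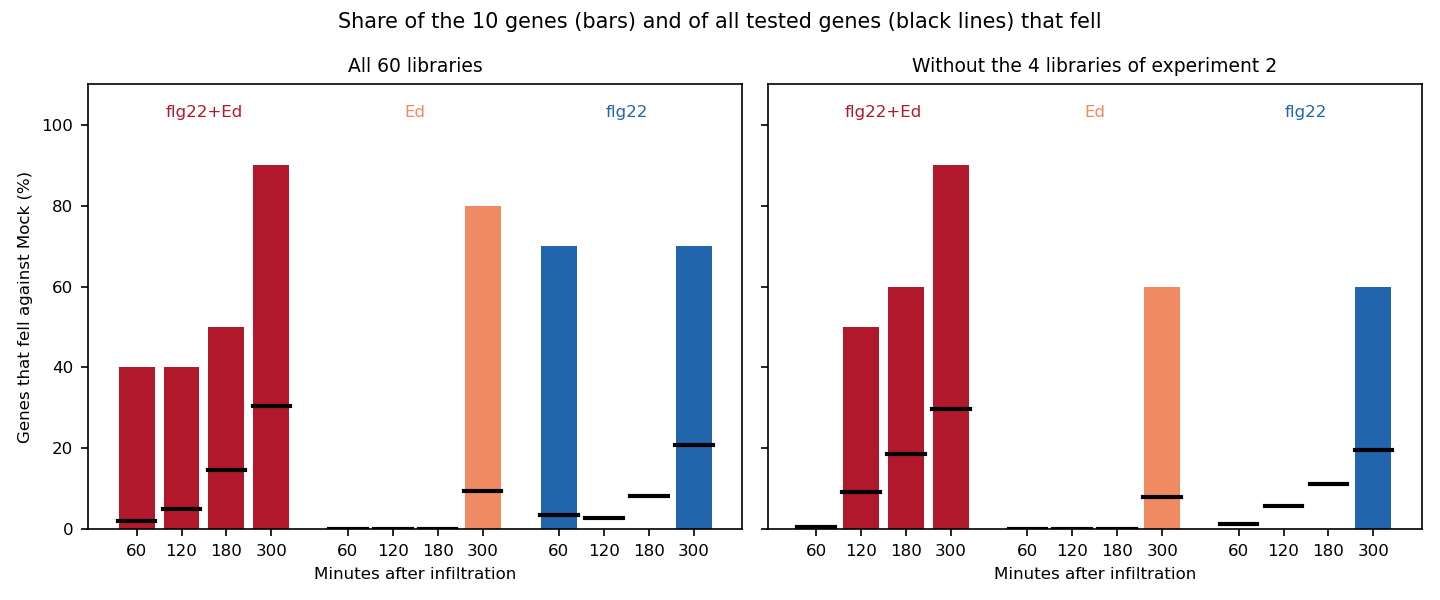
Share of the 10 genes that fell against Mock (bars, in %) and share of all tested genes that fell (black lines) at 60, 120, 180 and 300 min in flg22+Ed, Ed and flg22 leaves, with all 60 libraries on the left and without the 4 libraries of experiment 2 on the right. The bars at 60 min are at 40% and 70% on the left for flg22+Ed and flg22 and at 0 on the right, while those at 300 min stay between 60% and 90% in both panels.

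The reference leaves moved too. Against the 12 untouched libraries, Mock leaves had 5 of the 10 genes lower at 120 min (6.92% of all genes) and 3 at 180 min (5.58%), and 0 at 60 min (0.728% of all genes; 1 gene at an unadjusted p under 0.05, and 0 by DESeq2). CYP79F1, at 28.4, 41.9 and 18.3 CPM in Mock leaves at 120 min and a median of 135 CPM in untouched leaves (28.6 to 212 CPM), fell by 2.12 ± 0.46 on the log2 scale at 120 min (adjusted p = 0.000833) and by 1.95 ± 0.46 at 180 min (adjusted p = 0.00279). The value of CYP79F1 at 300 min was 0.06 ± 0.39 (adjusted p = 0.975). MAM1 had a median of 157 CPM in untouched leaves and fell in Mock by 1.12 ± 0.33 at 120 min (adjusted p = 0.0128) and by 1.03 ± 0.33 at 180 min (adjusted p = 0.0273). BCAT4, with a median of 139 CPM in untouched leaves, fell by 1.04 ± 0.35 (adjusted p = 0.0277) and by 1.22 ± 0.35 (adjusted p = 0.0147) at these times. MYB28 had a median of 62.9 CPM in untouched leaves, and its log2 fold changes in Mock, from -0.44 to 0.13, did not pass the test with all libraries. Without the 4 libraries MYB28 was called at 60 min, where it fell by 0.93 ± 0.29 (adjusted p = 0.011), and at no later time. Infiltration and the hour of the day both differ between Mock and untouched leaves and cannot be told apart here. Leaving out the 4 libraries of experiment 2 gave 6 genes at 60 min (14.5% of all genes), 7 at 120 min (14.3%), 6 at 180 min (11.6%) and 0 at 300 min (13.4% of all genes). With 1 library left out, the count reached 5 at 60 min without Mock 60 min replicate 2. At 120 min it was between 1, without Mock 120 min replicate 3, and 7, and was 2 without Mock 120 min replicate 1. At 180 min it was 0 without Mock 180 min replicate 2, 1 without Mock 180 min replicate 3, and 6 without Mock 0 min replicate 2 or flg22 0 min replicate 2.

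Across the 20 groups, the mean level was highest in an untouched group for 8 of the genes and in Mock at 60 min, which includes a library that stood apart, for MAM3 and BCAT4. The lowest group mean was that of flg22 at 60 min for MYB28 (18.0 CPM), MYB29 (2.39 CPM), CYP79F2 (0.459 CPM) and MYB76 (0 counts). It was that of flg22+Ed at 120 min for CYP79F1 (9.90 CPM), MAM1 (28.7 CPM) and BCAT4 (27.8 CPM). The lowest was flg22+Ed at 180 min for BAT5 (7.55 CPM), flg22+Ed at 300 min for CYP83A1 (47.1 CPM) and Ed at 300 min for MAM3 (2.22 CPM). For each of the 10 genes the 2 lowest groups overlapped in their library values, and so did the 2 highest. Among infiltrated groups Mock at 300 min was the highest for 7 of the genes.

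The genes resembled each other in their course over the 20 groups. The correlation of each with the mean of the other 9, on log2 CPM group means, was 0.950 for BAT5, 0.940 for MAM1, 0.932 for CYP83A1 and 0.921 for CYP79F2. It was 0.876 for MYB29, 0.852 for MYB76, 0.843 for CYP79F1, 0.777 for BCAT4 and 0.775 for MYB28, and 0.513 for MAM3. Outside the glucosinolate, clock and marker lists, the 5 tested genes most like the mean of the 10 were AK3 (AT3G02020, aspartate kinase 3, r = 0.970), DJ1F (AT3G54600, r = 0.968), AT1G72810 (a pyridoxal phosphate dependent enzyme, r = 0.953), PAP16 (AT3G10150, a purple acid phosphatase, r = 0.947) and SBP2 (AT4G14040, selenium-binding protein 2, r = 0.946). These describe 20 group means that share times of day and libraries, and without the 4 libraries they ranged from 0.923 (PAP16) to 0.970 (AK3). The level of PAP16 was low, with group means from 0.103 to 4.18 CPM.

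Other genes of the aliphatic route were called in both directions. Of 20 tested at 300 min, 11 fell and 5 rose in flg22+Ed, 8 fell and 0 rose in Ed, and 9 fell and 1 rose in flg22. Among all tested genes 30.5% fell and 27.9% rose in flg22+Ed, 9.46% fell and 14.7% rose in Ed, and 20.9% fell and 19.2% rose in flg22, so the share of the list that rose in flg22+Ed was near that of all genes. Their median log2 fold changes were -1.26, -1.12 and -1.19. SOT18, a sulfotransferase of the last core step, fell by 2.28 ± 0.42 in flg22+Ed (adjusted p = 8.9e-06), by 1.43 ± 0.40 in Ed (adjusted p = 0.00632) and by 1.33 ± 0.39 in flg22 (adjusted p = 0.00629). IPMDH1, a dehydrogenase of chain elongation, fell by 1.85 ± 0.36, 1.29 ± 0.35 and 1.26 ± 0.35 in the same order (adjusted p = 2.71e-05, 0.00544 and 0.00389). BCAT3, GSTU20, UGT74C1 and FMO-GS-OX1 were among the other falls. The genes that rose in flg22+Ed were APK2 (by 1.95 ± 0.56, adjusted p = 0.0029), GGP1 (by 1.53 ± 0.36, adjusted p = 0.000377), UGT74B1 (by 1.43 ± 0.33, adjusted p = 0.000237), SOT17 (by 1.07 ± 0.38, adjusted p = 0.0148) and FMO-GS-OX5 (by 0.54 ± 0.19, adjusted p = 0.0159). APK2 provides activated sulfate, and GGP1 and UGT74B1 also serve the indolic route. These 5 were named after their values were seen. AOP2 and AOP3 were not analysed here.

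Indolic synthesis genes stood in the other direction. Of 11 tested at 300 min, 9 rose and 1 fell in flg22+Ed, 8 rose and 1 fell in Ed, and 7 rose and 1 fell in flg22 leaves, with median log2 fold changes of 3.80, 2.17 and 1.68. The shares of all genes that rose were 27.9%, 14.7% and 19.2%, and those that fell 30.5%, 9.46% and 20.9%. MYB51, an activator of the indolic route, had 117, 140 and 93.6 CPM in flg22+Ed, 149, 154 and 118 CPM in Ed, 20.1, 22.9 and 15.2 CPM in flg22, and 3.91, 2.07 and 6.14 CPM in Mock. MYB51 rose by 4.91 ± 0.73 in flg22+Ed (log2 scale, adjusted p = 2.23e-07) by 5.18 ± 0.73 in Ed (adjusted p = 7.48e-07) and by 2.33 ± 0.71 in flg22 (adjusted p = 0.00782). CYP81F2, which modifies the indole ring, rose by 6.92 ± 0.87 in flg22+Ed (adjusted p = 6.38e-09), 6.34 ± 0.86 in Ed (adjusted p = 3.19e-07) and 6.20 ± 0.86 in flg22 (adjusted p = 2.21e-07). IGMT2, a methyltransferase acting after it, rose by 6.99 ± 0.94, 7.19 ± 0.94 and 5.45 ± 0.91 in the same order (adjusted p = 3.29e-08, 2.01e-07 and 7.27e-06), but IGMT1 and IGMT2 are close copies between which tags may be split. In untouched leaves CYP81F2 and IGMT2 were near the floor, with medians of 0.702 and 0.399 CPM. Their rises are set against Mock at 300 min, whose levels of these genes are not given here. The sizes of the rises may rest on few reference counts. MYB34, an activator of the indolic route named after its values were seen, was the gene that fell in each treatment, with a mean of 9.51 CPM in flg22+Ed, 7.59 CPM in Ed, 18.6 CPM in flg22 and 39.4 CPM in Mock.

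**Figure D4:**
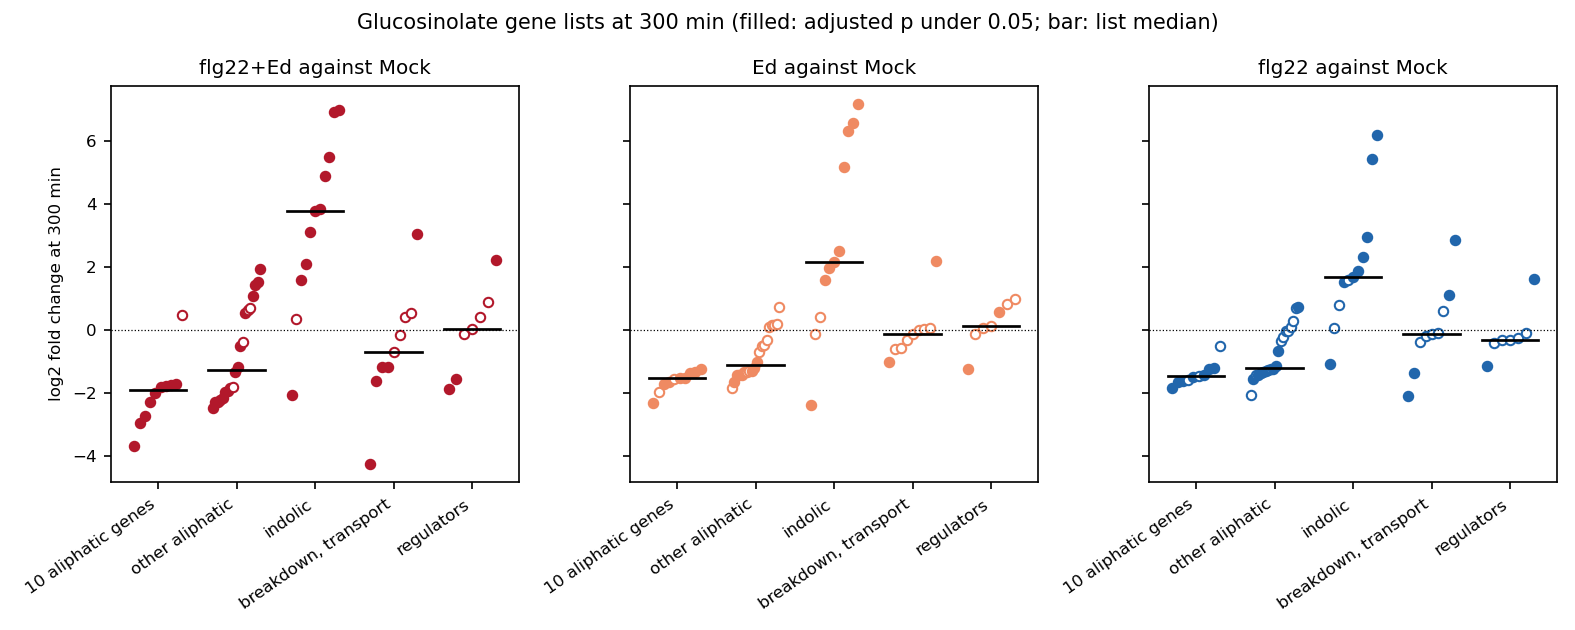
Log2 fold change against Mock at 300 min (vertical axis) of the 10 aliphatic genes and of 4 other lists of glucosinolate genes in flg22+Ed, Ed and flg22 leaves, with 1 point per tested gene, filled for adjusted p under 0.05, and a bar at the list median. The indolic medians are at 3.80, 2.17 and 1.68 and those of the 10 aliphatic genes at -1.90, -1.54 and -1.46.

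Among 9 genes of glucosinolate breakdown and transport, 4 fell and 1 rose in flg22+Ed at 300 min, 1 fell and 1 rose in Ed, and 2 fell and 2 rose in flg22. These few calls stand beside 30.5% and 27.9% of all genes in flg22+Ed, 9.46% and 14.7% in Ed and 20.9% and 19.2% in flg22, and most are near those shares. PEN2, a myrosinase that cleaves indolic glucosinolates in defence, had 865, 1059 and 771 CPM in flg22+Ed, 515, 491 and 480.1 CPM in Ed, 686, 858 and 784 CPM in flg22, and 128, 55.5 and 139.7 CPM in Mock. It rose in all 3 treatments (by 3.06 ± 0.50, 2.20 ± 0.48 and 2.85 ± 0.49 on the log2 scale; adjusted p = 1.25e-06, 0.00055 and 1.18e-05). ESM1, which steers breakdown products towards isothiocyanates, fell by 4.26 ± 0.54 in flg22+Ed (adjusted p = 9.11e-09) and by 2.11 ± 0.49 in flg22 (adjusted p = 0.000618). ESP, which steers them towards nitriles, fell by 1.61 ± 0.30 in flg22+Ed (adjusted p = 9.87e-06), by 1.02 ± 0.29 in Ed (adjusted p = 0.00672) and by 1.36 ± 0.29 in flg22 (adjusted p = 0.000192).

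Of 7 tested regulators that act on the aliphatic genes, 2 fell and 1 rose in flg22+Ed at 300 min, and 1 fell and 1 rose in each single treatment. The share of all genes that fell was 30.5% in flg22+Ed, 9.46% in Ed and 20.9% in flg22. The share that rose was 27.9%, 14.7% and 19.2%, so these counts are not results about the list. MYC4 had 6.34, 7.74 and 9.96 CPM in flg22+Ed, 11.2, 9.90 and 15.7 CPM in Ed, 12.3, 12.2 and 15.0 CPM in flg22, and 18.997, 46.1 and 22.0 CPM in Mock. It fell by 1.86 ± 0.36 in flg22+Ed (log2 scale, adjusted p = 1.88e-05), by 1.25 ± 0.34 in Ed (adjusted p = 0.00538) and by 1.15 ± 0.34 in flg22 (adjusted p = 0.00573). Without the 4 libraries, among them the highest Mock value, MYC4 fell by 1.33 ± 0.33 in flg22+Ed (adjusted p = 0.000589), and its values were -0.74 ± 0.32 in Ed (adjusted p = 0.0897) and -0.59 ± 0.31 in flg22 (adjusted p = 0.131). MYC2 was at 0.03 ± 0.44, 1.00 ± 0.43 and -0.41 ± 0.44 in flg22+Ed, Ed and flg22 (adjusted p = 0.966, 0.0817 and 0.493). MYC3 was at 0.42 ± 0.22 in flg22+Ed and -0.09 ± 0.22 in flg22 (adjusted p = 0.0976 and 0.781), and rose by 0.58 ± 0.22 in Ed (adjusted p = 0.047). SDI2, a repressor of glucosinolate synthesis known from sulfur starvation, had 47.4, 33.3 and 56.2 CPM in flg22+Ed, 19.1, 17.7 and 15.7 CPM in Ed, 17.1, 32.6 and 42.0 CPM in flg22, and 10.3, 7.68 and 11.8 CPM in Mock. SDI2 rose by 2.22 ± 0.61 in flg22+Ed (adjusted p = 0.00171) and by 1.63 ± 0.60 in flg22 (adjusted p = 0.0279), and was at 0.83 ± 0.61 in Ed (adjusted p = 0.346). Its relative SDI1 was near the floor, at 0.89 ± 1.38, 0.12 ± 1.46 and -0.31 ± 1.54 (adjusted p = 0.6, 0.969 and 0.899). IQD1, a calmodulin-binding protein that raises glucosinolate levels, fell by 1.56 ± 0.55 in flg22+Ed (adjusted p = 0.0132). Its level was low, with a median of 2.23 CPM in untouched leaves (0.858 to 4.12 CPM).

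These are leaves in bulk, where fewer cells of a type and less RNA per cell cannot be told apart. Cell type markers moved in the same samples. The summed level of 3 mesophyll markers (RBCS1A, RCA and LHCB1.1), which are genes of photosynthesis, was 3525 to 4998 CPM in flg22+Ed at 300 min, 12120 to 15491 CPM in Ed, 7495 to 13838 CPM in flg22 and 19061 to 24957 CPM in Mock. Of the 3, 3, 2 and 3 fell in flg22+Ed, Ed and flg22, beside 30.5%, 9.46% and 20.9% of all genes. In the fit without the 4 libraries RBCS1A was not called in Ed (adjusted p = 0.104), which left 1 of the 3. Markers of the phloem and veins (5 genes) summed to 369 to 477 CPM in flg22+Ed, 272 to 388 CPM in Ed, 419 to 442 CPM in flg22 and 431 to 552 CPM in Mock. Of the 5, 2, 3 and 1 fell in these treatments. Guard cell markers (7 genes) summed to 51.4 to 67.4 CPM in flg22+Ed, 62.2 to 77.1 CPM in Ed and 58.6 to 75.9 CPM in flg22, against 81.9 to 102 CPM in Mock. Of the 7, 2, 0 and 0 fell, and 1 rose in flg22, where 19.2% of all genes rose. Epidermal markers (5 genes, of which 4 were tested) summed to 301 to 375 CPM in flg22+Ed, 203 to 385 CPM in Ed and 534 to 643 CPM in flg22, against 548 to 752 CPM in Mock. Of the 4 tested, 3, 3 and 1 fell. PDF1, the epidermal marker that failed the filter on low counts, had 0 counts in the flg22+Ed leaves. At 60 min, when the genes also stood lower in flg22 leaves, the mesophyll markers summed to 22401 to 24925 CPM in flg22+Ed, 22718 to 28248 CPM in Ed, 21919 to 25273 CPM in flg22 and 21957 to 30017 CPM in Mock. The phloem and vein markers at 60 min summed to 423 to 548 CPM in flg22+Ed, 394 to 513 CPM in Ed and 409.9 to 539.5 CPM in flg22, all below the 572 to 594 CPM in Mock. Of those 5 markers, 0 fell in flg22+Ed, 0 in Ed and 1 in flg22 (SWEET11, -0.73, adjusted p = 0.0363, and 0.169 without the 4 libraries). Among all tested genes 2.08%, 0% and 3.39% fell in these treatments at 60 min. The guard cell and epidermal sums at 60 min overlapped between each treatment and Mock. The part of these cell types in the results was not tested.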

How the data were processed

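The authors deposited 1 table of raw read counts per gene for 60 libraries, made by 3′-end tag sequencing (Smart-3SEQ, with a 5-base molecular tag and 8 bases trimmed, per the labels' protocols). Base calling with bcl2fastq 2.17.1.14, alignment with STAR 2.4.2a and the build TAIR10 are named in the submitters' processing notes. For the counter, the annotation, the use of strand and any collapsing of molecular tags nothing was given in the labels. Counts may therefore hold PCR copies, and overlapping genes cannot be separated. The table gives no coordinates; positions and sequences are from RefSeq TAIR10.1.

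The counts were filtered with filterByExpr, scaled with TMM and tested with the edgeR quasi-likelihood test (edgeR 4.0.16, R 4.3.3) over all 60 libraries in 20 groups, with 40 residual degrees of freedom and Benjamini-Hochberg adjustment over 16763 genes at 0.05. The error after ± on a log2 fold change is its size divided by the square root of F. The code was tested on simulated data. The 3 replicates of a group are numbered by independent experiment. Residuals of libraries from the same experiment had a median correlation of 0.114, against -0.0672 between experiments. The alternatives tried were a term for the experiment (the replicate block), DESeq2 1.42.0, limma-voom (limma 3.58.1), scaling by RLE or by library size, testing every gene or those with at least 10 CPM in 3 libraries, fitting only the groups compared, dropping the 4 libraries of experiment 2, and dropping each library in turn.

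The 10 genes and all lists were chosen with earlier results of these data known. The 10 genes were always named. From the other glucosinolate lists, the rule named up to 4 genes per comparison at 300 min with the smallest adjusted p under 0.05, plus MYC2, MYC3, MYC4, SDI1 and SDI2. The 5 most alike genes were ranked by Pearson correlation over the 20 group means of log2 CPM (prior count 2).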

Additional observations from a re-analysis of the deposited data

How the results depend on the processing

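The count of 9 for flg22+Ed against Mock at 300 min was 8 with the filter of 10 CPM in 3 libraries and 8 when only the groups compared were fitted, since MYB76 was not tested in either, and 9 under the other alternatives, left-out libraries included. Fitting only the groups compared gave 0 genes for flg22 and 0 for flg22+Ed at 60 min, 6 for flg22+Ed against flg22 (5 fell, and MAM3 rose) and 4 for flg22+Ed against Ed at 300 min (3 fell, and MAM3 rose). Without the 4 libraries of experiment 2 the counts were 0 for flg22 and 0 for flg22+Ed at 60 min, 1 for flg22+Ed against Ed at 180 min and 3 at 300 min (2 fell, and MAM3 rose), and 6 for Mock against untouched at 60 and at 180 min. RLE factors, no filter and limma-voom each gave 2 for flg22+Ed at 60 min and 1 for flg22+Ed against flg22 at 300 min. DESeq2 gave 2 for flg22+Ed against Ed at 300 min (1 fell, and MAM3 rose) and 6 for Mock against untouched at 180 min.

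The fit with the replicate block gave 2 for flg22+Ed against Ed at 300 min (1 fell, and MAM3 rose), 8 for flg22 at 60 min, 9 for Ed at 300 min, 6 for flg22+Ed at 180 min and 4 for Mock against untouched at 180 min; the other counts were those of the fit without it.

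Leaving out 1 library gave 0 to 8 genes for flg22 at 60 min, 0 to 1 at 120 min and 4 to 7 at 300 min; 3 to 8 for Ed at 300 min; 0 to 5 for flg22+Ed at 60 min, 0 to 4 at 120 min and 1 to 6 at 180 min; 0 to 2 for flg22+Ed against flg22 and 0 to 2 against Ed at 300 min, where the 1 gene left without flg22+Ed replicate 2 was higher in flg22+Ed; 0 to 1 for Ed against flg22 at 300 min; and 0 to 5, 1 to 7 and 0 to 6 for Mock against untouched at 60, 120 and 180 min.

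Single log2 fold changes that turned sign were all uncalled. With 1 library left out, flg22 at 120 min ranged over -0.33 to 0.12 (MYB28), -0.43 to 0.40 (MYB29; -0.03 by limma-voom), -0.72 to 0.04 (MAM1), -1.0 to 0.83 (MAM3) and -0.48 to 0.33 (BCAT4; -0.04 by limma-voom and by library sizes alone). At 180 min flg22 ranged over -0.78 to 0.21 (CYP79F1), -0.92 to 0.17 (CYP79F2) and -0.46 to 1.00 (MAM3), and at 300 min over -2.0 to 0.40 (MAM3; 0.43 without the 4 libraries). For Ed the ranges were -1.47 to 0.20 (MYB76; 0.19 without the 4 libraries) and -1.37 to 0.38 (CYP79F2; 0.38) at 60 min and -0.36 to 0.10 (MYB28) at 120 min. At 180 min they were -0.56 to 0.56 (CYP79F1), -1.24 to 0.11 (CYP79F2), -0.71 to 0.10 (BCAT4), -0.94 to 0.03 (BAT5) and -1.28 to 0.48 (MAM3; -0.08 with the block, -0.03 by DESeq2, -0.34 by limma-voom). For flg22+Ed they were -1.67 to 0.08 (CYP79F2; 0.10 without the 4 libraries) at 60 min, and for MAM3 -1.28 to 0.15 at 120 min, -2.46 to 0.07 at 180 min and -0.16 to 2.32 at 300 min. The cause was not tested. Library sizes alone moved the median of all genes by -0.116 for flg22, -0.111 for Ed and -0.118 for flg22+Ed at 60 min and by 0.149 for flg22 at 300 min. Depth limits MYB76 and CYP79F2 most, with 307 and 802 counts in all.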
